A study of Catharanthus roseus with 35 samples.

Results

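Glutamine synthetase (CATHA_12222) and an MtN21/EamA-like transporter of the amino acid carrier type (CATHA_30029) were followed through all protoplast, leaf age and growth groups of a *Catharanthus roseus* leaf RNA-seq series. They are 2 genes of the 35722 in each file. Both genes were selected by their levels in idioblasts, the leaf cells that store monoterpenoid indole alkaloids (MIAs). Both came from the genes that the study called higher in idioblasts than in common mesophyll cells. Glutamine synthetase was among the 25 of these ranked highest by idioblast level. The transporter was among the 25 of these ranked highest by the log2 fold change (FC) of idioblasts over common mesophyll cells. The values in idioblast and mesophyll protoplasts are therefore a description and carry no test.

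All plants were of the cultivar Little Bright Eye. In the cell sorting (FACS) experiment, protoplasts (wall-less cells released by enzymes) came from young leaves of plants kept in a growth chamber at 25 °C with 16 h of light a day. Idioblast protoplasts (n = 3) were sorted by their blue/green autofluorescence as an enriched and not a pure population, mesophyll protoplasts (n = 3) were sorted as common mesophyll cells, total protoplasts (n = 3) were the unsorted cells, and FACS leaves (n = 2) were whole leaves of the same experiment. The replicates came from separate groups of plants, each pooled. In the growth experiment, leaves of pairs 1 to 4 (pair 1 being nearest to the apex) were taken from plants kept in the chamber (indoors) or transferred to an outdoor site with direct sun and sampled in early September (outdoors), with n = 3 per leaf pair and growth condition and central veins removed. The labels give no genetic change and no chemical treatment.

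Glutamine synthetase joins ammonium to glutamate and is the enzyme through which plants bring nitrate-derived, photorespired and recycled ammonium into amino acids. Its product is the nitrogen donor for other amino acids, among them the precursors of the indole branch. The study's name for CATHA_12222 gives no isoform. Any other glutamine synthetase genes were not followed here, so its levels are not those of the whole enzyme. MtN21/EamA-like proteins (the UMAMIT family in *Arabidopsis*) are membrane carriers, many of which move amino acids out of cells or across the vacuole membrane. The study described CATHA_30029 as a bidirectional amino acid transporter and named glutamine as a substrate of the family. Its annotation there carries the word fragment.

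The 23 Illumina libraries (protoplasts, FACS leaves, leaf pairs 1 and 4) held 10263533 to 17625811 counts, and the 12 Nanopore libraries (leaf pairs 2 and 3) 85976 to 732961. Levels below are CPM, the counts of a gene relative to its library total, scaled by TMM, a between-library normalisation, over the Illumina or the Nanopore libraries separately, so levels were not compared between the platforms or between the 2 genes, whose lengths the files do not hold. The summed level of the idioblast markers DAT (CATHA_18617) and D4H (CATHA_25357), which encode the closing steps of vindoline synthesis, was 1356 to 3453 CPM in idioblast protoplasts and 47.6 to 150.2 CPM in mesophyll protoplasts. The FACS leaf libraries stood apart from each other. The summed level of 8 epidermal markers was 770.5 CPM in replicate 1 and 3050.3 CPM in replicate 2. That of 6 markers of internal phloem-associated parenchyma was 309.5 and 1909.3 CPM. The same 8 epidermal markers summed to 2472 to 2590 CPM in mesophyll protoplasts and 2025 to 2910 CPM in total protoplasts. Their sum was therefore not taken as a measure of epidermal cells. Results that rest on FACS leaves are followed by their values without replicate 2 where these differ in call or by more than 1.5 times.

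Glutamine synthetase was at 2459.9, 2051 and 2468 CPM in the idioblast protoplasts. In the mesophyll protoplasts it was at 71.4, 59.2 and 90.0 CPM. The idioblast mean of 2326 ± 238 CPM (SD, n = 3) was 31.6 times the mesophyll mean of 73.5 ± 15.5 CPM (SD, n = 3), and the lowest idioblast library lay far above the highest mesophyll library. The gene was thus read in every mesophyll library at a depth of 565 to 724 counts.

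The transporter was at 79.1, 55.6 and 56.3 CPM in the idioblast protoplasts, from 1141, 664 and 483 counts. In mesophyll protoplasts it had 0, 0 and 2 counts. Pooled over the replicates, the idioblast level was 858 times the mesophyll level, with a 95% interval of 237 to 7090 (exact, for counting error only). The interval leaves out the spread between replicates, carries the selection of the gene and is not a test. Where a mesophyll library had no count, 3 counts would have been 0.282 CPM in replicate 1 and 0.237 CPM in replicate 2, so a level under these was not detectable. Mesophyll protoplasts thus held reads of glutamine synthetase and almost none of the transporter.

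Other nitrogen and carrier genes are given in the sorted cells as a description, since several of them come from the study's table of genes higher in idioblasts. Glutamate decarboxylase (CATHA_5590) was at 1673 ± 129.6 CPM in idioblast and 689 ± 71.3 CPM in mesophyll protoplasts, and the BAT1 homologue (CATHA_30441), a bidirectional amino acid permease in *Arabidopsis*, at 1158 ± 181 and 375 ± 44.3 CPM (SD, n = 3 each). Nitrate reductase (CATHA_2546) was at 237 ± 8.75 CPM in idioblast and 397 ± 12.4 CPM in mesophyll protoplasts, and L-aspartate oxidase (CATHA_35651) at 136 ± 22.8 and 207 ± 19.3 CPM. The idioblast to mesophyll ratio of glutamine synthetase was above that of each of these 4 genes, and it carries the selection of the gene.

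In the unsorted total protoplasts, glutamine synthetase was at 160.7, 165.9 and 172.3 CPM (166 ± 5.83, SD, n = 3), which is 2.26 times the mesophyll mean. The transporter was at 1.82, 1.95 and 0.433 CPM (1.403 ± 0.843, SD, n = 3), from 17, 22 and 4 counts, and replicate 3 was the low library. The pooled total protoplast level of the transporter was 18.9 times that of mesophyll (95% interval 4.92 to 161, exact, counting error only). This interval too carries the selection, through the mesophyll values, and is not a test. Neither gene's total protoplast range overlapped its mesophyll range.

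The place of the total protoplasts between the sorted populations was expressed as a share, the total minus the mesophyll mean divided by the idioblast minus the mesophyll mean. This share was 4.12% for glutamine synthetase (3.87, 4.10 and 4.38% in the total protoplast libraries) and 2.08% for the transporter (2.74, 2.94 and 0.550%). For the other 24 genes ranked by idioblast fold change, the share had a median of 3.09% and ran from 1.66 to 11.3%. Glutamine synthetase was above 22 of these 24 and the transporter above 2. As the share is built from the idioblast and mesophyll means, it carries the selection of all these genes, and their order is not a test. It also takes no account of other cell types in the total protoplasts. Among the 12 other genes ranked by idioblast level whose idioblast mean was at least 4 times the mesophyll mean, the median was 3.65% and 8 lay below glutamine synthetase. Over all 24 other genes ranked by level the median was 6.52%, the highest was 43.9%, and 9 lay below glutamine synthetase, so its place depended on that fold limit. In bulk samples such as these, fewer cells of a type and less RNA per cell cannot be told apart.

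**Figure D1:**
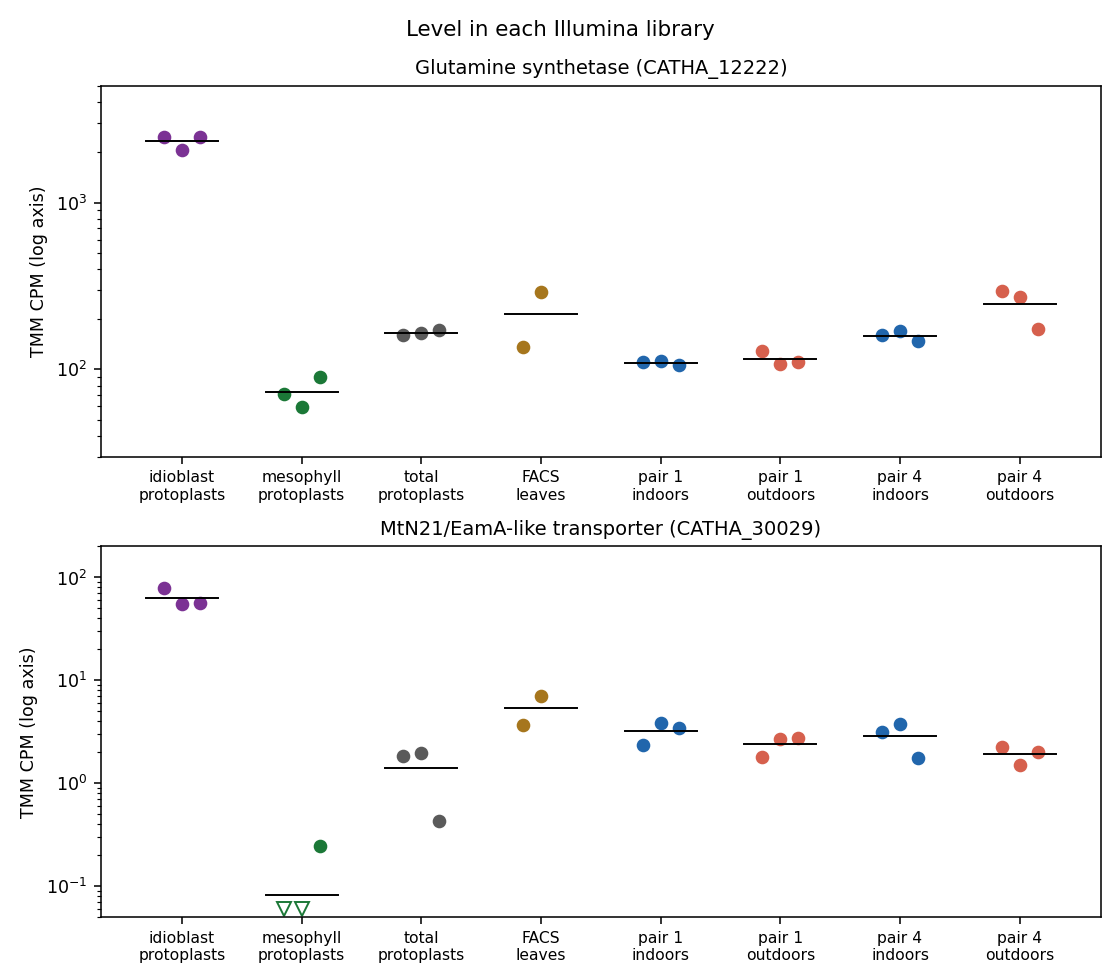
TMM CPM (log axes) of glutamine synthetase, upper panel, and the transporter, lower panel, in each of the 23 Illumina libraries; points are libraries, bars are group means, and open triangles mark libraries with 0 counts. Idioblast protoplasts were the highest group for both genes, and mesophyll protoplasts the lowest. The FACS groups and the leaf pairs differ in experiment and library kit.

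Ranked by group mean, glutamine synthetase ran from idioblast protoplasts through leaf pair 4 outdoors (246 CPM), FACS leaves (213 CPM), total protoplasts (166 CPM), leaf pair 4 indoors (159 CPM), leaf pair 1 outdoors (116 CPM) and leaf pair 1 indoors (109 CPM) to mesophyll protoplasts. The libraries did not overlap at 3 steps of this order: below idioblast protoplasts, between leaf pair 4 indoors and leaf pair 1 outdoors, and above mesophyll protoplasts. The other neighbours overlapped. Without replicate 2, FACS leaves were at 137 CPM and fell below leaf pair 4 indoors in this order. For the transporter the order was idioblast protoplasts, FACS leaves (5.36 CPM), leaf pair 1 indoors (3.23 CPM), leaf pair 4 indoors (2.89 CPM), leaf pair 1 outdoors (2.41 CPM), leaf pair 4 outdoors (1.91 CPM), total protoplasts (1.403 CPM) and mesophyll protoplasts. Only the steps at the 2 ends of this order were without overlap. All 12 libraries of leaf pairs 1 and 4 lay above the mesophyll range for both genes. This gap and the steps next to idioblast and mesophyll protoplasts carry the selection of the genes and are not a test. The share of all genes with such gaps was not counted. The FACS groups and the leaf pairs came from different experiments and library kits (Smart-seq2 and TruSeq). Where this order sets the FACS groups against the leaf pairs, kit and experiment cannot be told apart from the groups.

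The comparison of total protoplasts with FACS leaves asked how the unsorted cells differed from the tissue they were made from. The genes were not chosen by a contrast of these groups. Total protoplasts were, however, in the model behind the study's calls, and glutamine synthetase was ranked by its level in idioblast protoplasts. The transporter fell and glutamine synthetase was not called. The transporter was at 3.69 and 7.04 CPM in the FACS leaves, so both leaf libraries lay above all 3 total protoplast libraries. Its log2 FC was -1.95 ± 0.560 (SE) with an adjusted p of 0.012 by edgeR's quasi-likelihood test, where a call required an adjusted p of at most 0.05 and an absolute log2 FC of at least 1. Without FACS leaves replicate 2 the log2 FC was -1.39 and the adjusted p 0.065, and with only the 5 compared samples in the fit they were -1.92 and 0.0758, so the call ended in both cases. In this comparison 27.5% of the 17533 genes tested were called lower and 22.5% higher, and the median gene was at -0.17.

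Glutamine synthetase was at 137 and 290 CPM in the FACS leaves, 1 library on each side of the total protoplast range. Its log2 FC of -0.41 ± 0.305 (SE) had an adjusted p of 0.266. It was -0.83 without FACS leaves replicate 1 and 0.26 without replicate 2, so its direction depended on which leaf library was kept. The epidermal and phloem parenchyma markers that differed between the leaf libraries, given above, moved with the leaf level of glutamine synthetase, and their part in it was not tested.

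The other genes of the 2 idioblast rankings are given here side by side, where 22.5% of all genes were called higher and 27.5% lower. Of the other 24 genes ranked by idioblast fold change, 15 were called lower in total protoplasts and 2 higher, with a median log2 FC of -2.21. Both DAT (log2 FC -4.08) and D4H (log2 FC -2.61) were among the genes called lower. Of the other 24 ranked by idioblast level, 18 were called higher and 3 lower, with a median of 3.63. These genes were ranked by their level in protoplasts of the same experiment, so their counts carry that choice. Without FACS leaves replicate 2, the genes ranked by fold change had 13 called lower and 2 higher with a median of -1.58, those ranked by level had 17 called higher and 3 lower with a median of 3.49, and DAT and D4H were still called lower. The transporter lay near the median of its list, whereas glutamine synthetase lay between the medians of both lists.

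Among nitrogen genes measured beside glutamine synthetase, 3 of 6 tested were higher in total protoplasts than in FACS leaves and 1 lower. Over all genes tested, 22.5% were called higher and 27.5% lower. Those called higher were glutamate decarboxylase (CATHA_5590, which makes GABA from glutamate, log2 FC 2.74), L-aspartate oxidase (CATHA_35651, the entry into NAD synthesis, 2.57) and an asparaginase (CATHA_28259, which releases ammonium from asparagine, 2.30). A nitrate transporter 1.5 gene (CATHA_23251) was called lower at -3.47, and nitrate reductase (CATHA_2546) was at 0.27 ± 0.689 (SE). The FACS leaf libraries were far apart for several of these genes, L-aspartate oxidase being at 5.36 and 60.9 CPM, nitrate transporter 1.5 at 3.89 and 26.9 CPM and nitrate reductase at 56.5 and 763 CPM. Without FACS leaves replicate 2, L-aspartate oxidase was at 5.22 and the asparaginase at 3.68, both called higher, nitrate reductase was called higher at 3.16, and nitrate transporter 1.5 was at -1.46 without a call. Without replicate 1, L-aspartate oxidase was at 1.71, nitrate transporter 1.5 at -4.25 and nitrate reductase, without a call, at -0.60. Of 3 other amino acid carriers, a BAT1 homologue (CATHA_30441) was called higher at 3.37. Of 3 other genes of the EamA family, the gene with EamA and LEA domains (CATHA_25905) was called higher at 3.797, and a WAT1-related gene (CATHA_18817) was at -2.01 ± 1.43 (SE) without a call. Of these 6 genes, the 4 that edgeR did not call had an unadjusted p above 0.05, whereas the transporter was called lower. Without FACS leaves replicate 2 the calls of CATHA_30441 (3.88) and CATHA_25905 (4.56) stood and CATHA_18817 was at 0.16, and without replicate 1 a further WAT1-related gene, CATHA_26235 (0.54 with both), was called higher at 2.27.

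Leaf pairs 1 and 4 gave the comparisons of growth condition and leaf age. Glutamine synthetase rose with leaf age outdoors, and its levels were lowest in leaf pair 1. It was at 110.0, 112.4 and 105.7 CPM in leaf pair 1 indoors and at 128.3, 107.8 and 110.8 CPM in leaf pair 1 outdoors. In leaf pair 4 it was at 160.4, 170.3 and 147.2 CPM indoors and at 294.1, 270.1 and 175.0 CPM outdoors. Every leaf pair 4 library thus lay above every leaf pair 1 library, and every outdoor library of leaf pair 4 above every indoor one. Replicate 3 of leaf pair 4 outdoors was well below the other two.

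**Figure D2:**
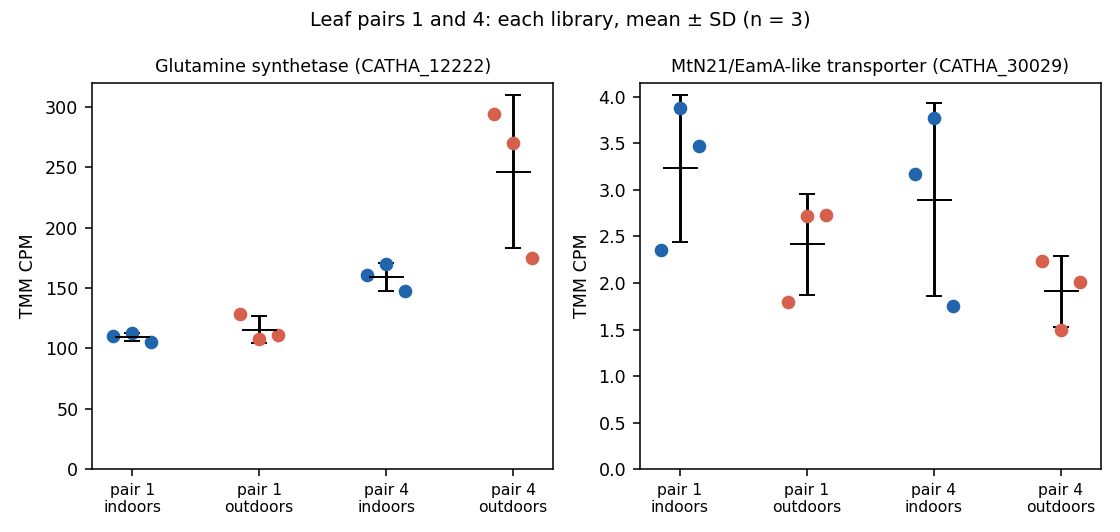
TMM CPM of glutamine synthetase (left) and the transporter (right) in leaf pairs 1 and 4; points are the 12 libraries, bars are mean ± SD (n = 3), blue is indoors and red outdoors. Glutamine synthetase is higher in leaf pair 4, and the transporter groups overlap.

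Leaf pair 4 against leaf pair 1 outdoors gave a log2 FC of 1.02 ± 0.160 (SE) for glutamine synthetase with an adjusted p of 0.00034, which met the call. With the number in the file headers, read as the plant, as a block, the log2 FC was 0.99 ± 0.131 (SE) with an adjusted p of 0.000794, just under the fold limit, so the call ended on size and not on p. Leaving out single libraries moved it from 0.88 to 1.21, and the call was lost without leaf pair 4 outdoors replicate 1 (0.88), without leaf pair 4 outdoors replicate 2 (0.95) or without leaf pair 1 outdoors replicate 3 (0.99). Of all 17299 genes tested, 8.41% were called higher and 13.9% lower in this comparison.

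Indoors the age difference of glutamine synthetase was 0.61 ± 0.160 (SE) on the log2 scale, with an adjusted p of 0.0076, and its size was below the fold limit of the call. Here 11.5% of genes were called higher and 10.8% lower. The growth difference in leaf pair 4 was 0.54 ± 0.159 (SE) with an adjusted p of 0.0161, also below the fold limit, beside 5.75% of genes called higher and 11.4% lower. In leaf pair 1 the growth difference was 0.13 ± 0.159 (SE) with an adjusted p of 0.597, beside 4.12% called higher and 2.45% lower. The test of whether the age difference itself changed with growth condition gave 0.41 ± 0.225 (SE) with an adjusted p of 0.284, so a dependence on growth condition was not shown. Leaving out single libraries moved this value from 0.27 to 0.60, and without leaf pair 4 outdoors replicate 3, the low library, it was 0.60 with an adjusted p of 0.0352, still below the fold limit. In that test 0.74% of genes were called higher and 3.25% lower, and 6.98% had an adjusted p of at most 0.05 at any size.

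The transporter was at 2.35, 3.87 and 3.47 CPM in leaf pair 1 indoors and 1.79, 2.72 and 2.73 CPM in leaf pair 1 outdoors. In leaf pair 4 it was at 3.17, 3.77 and 1.75 CPM indoors and 2.23, 1.49 and 2.01 CPM outdoors. These levels rest on 20 to 72 counts a library, and the ranges of neighbouring groups overlapped. No comparison met the call. The growth difference was -0.36 ± 0.308 (SE) in leaf pair 1, with an adjusted p of 0.435, and -0.68 ± 0.326 (SE) in leaf pair 4, with an adjusted p of 0.109. The age difference was -0.09 ± 0.310 (SE) indoors, with an adjusted p of 0.828, and -0.41 ± 0.324 (SE) outdoors, with an adjusted p of 0.311. The interaction was -0.32 ± 0.448 (SE) with an adjusted p of 0.701. The standard errors of the transporter were larger than those of glutamine synthetase in each of these comparisons.

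**Figure D3:**
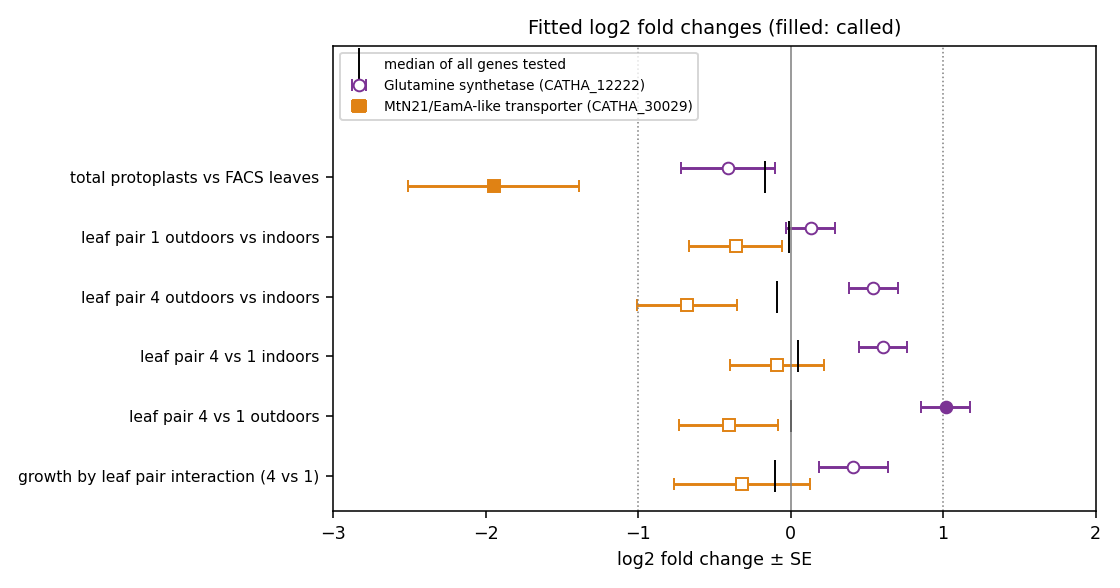
Log2 fold change ± SE of glutamine synthetase (circles) and the transporter (squares) in the 6 Illumina comparisons tested, the lowest row being the difference between the outdoor and indoor age changes; filled symbols were called, vertical ticks are the median of all genes tested, and dotted lines mark log2 FC of -1 and 1. The transporter in total protoplasts (-1.95) and glutamine synthetase in leaf pair 4 against 1 outdoors (1.02) are filled.

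Because both genes are counted in the same library, the glutamine synthetase counts per transporter count do not depend on the scaling between libraries. This count ratio was 31.1 to 43.8 in the idioblast protoplasts and 37.1 to 41.1 in the FACS leaves. In leaf pair 1 its range was 29.0 to 46.7 for indoor and 39.6 to 71.6 for outdoor plants, and in leaf pair 4 it was 45.2 to 84.2 for indoor and 87.2 to 181 for outdoor plants. Leaf pair 4 outdoors thus lay above every other Illumina leaf library. In total protoplasts the count ratio was 85.0 to 398, and pooled over the mesophyll libraries it was 952, from 1904 counts against 2. As the genes were chosen with earlier results known, the count ratio is given with no test. The FACS groups and the leaf pairs also differ in experiment and library kit.

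**Figure D4:**
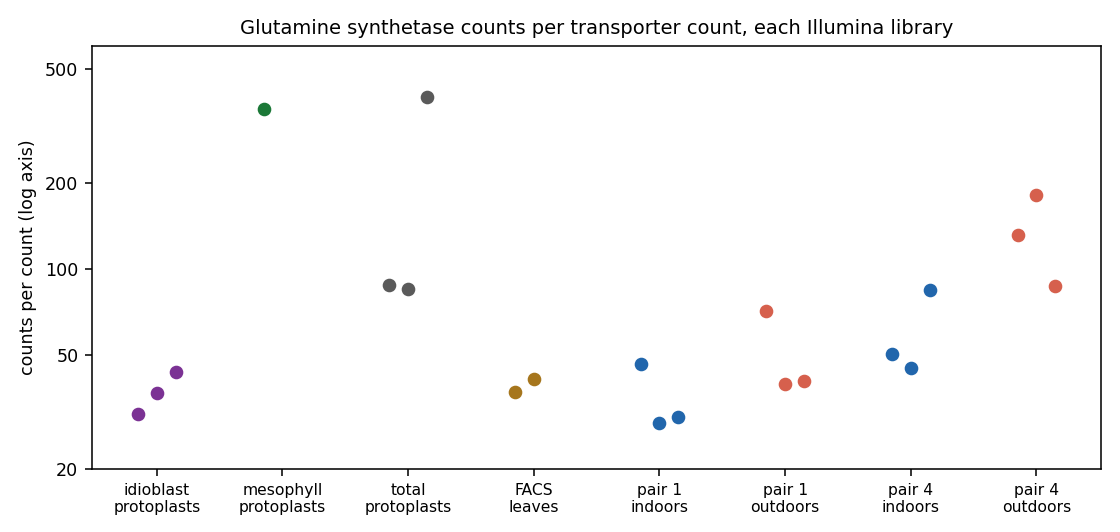
Glutamine synthetase counts per transporter count (log axis) in the Illumina libraries; each point is a library, and 2 mesophyll libraries are not drawn because the transporter had 0 counts there. Leaf pair 4 outdoors (87.2 to 181) lies above all other leaf libraries.

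In the Nanopore libraries of leaf pairs 2 and 3, glutamine synthetase had 13 to 91 counts. It was at 118.0, 85.0 and 93.4 CPM in leaf pair 2 indoors and 177.6, 91.6 and 115.3 CPM in leaf pair 2 outdoors. In leaf pair 3 it was at 92.4, 77.8 and 103.7 CPM indoors and 182.7, 122.2 and 100.5 CPM outdoors. The growth groups overlapped in both leaf pairs. The growth difference was 0.41 ± 0.3005 (SE) in leaf pair 2, with an adjusted p of 0.41, and 0.56 ± 0.283 (SE) in leaf pair 3, with an adjusted p of 0.184, beside 10.2% and 13.2% of the 5641 genes called in either direction. Side by side with the Illumina values of 0.13 for leaf pair 1 and 0.54 for leaf pair 4, all 4 growth differences of glutamine synthetase were above 0. None met the call, and the leaf pairs came from the same plants in each growth condition, so the 4 directions are not independent. With single libraries left out, the leaf pair 2 value ran from 0.15 to 0.60 and the leaf pair 3 value from 0.31 to 0.77, and the platforms cannot be told apart from the leaf pairs.

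Between leaf pairs 3 and 2, glutamine synthetase differed by -0.05 ± 0.304 (SE) indoors, with an adjusted p of 0.983, and by 0.09 ± 0.279 (SE) outdoors, with an adjusted p of 0.984. The interaction was 0.15 ± 0.412 (SE). At this depth few genes were called at all by edgeR: 0% indoors (458 genes had an unadjusted p under 0.05 and DESeq2 called 16), 0.213% outdoors, and 0% for the interaction (238 genes had an unadjusted p under 0.05 and DESeq2 called 0). With plant as a block the counts were 107 indoors, 91 outdoors and 9 for the interaction, and glutamine synthetase was in none of them.

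The transporter had at most 2 counts in any of the 12 Nanopore libraries, 11 in all, and 0 counts in 4 libraries. It did not pass the low-count filter and was not tested there. In these libraries 3 counts were 4.09 to 34.9 CPM, so the 1 or 2 counts in the other 8 libraries show that it was read but do not measure its level.

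Genes of nitrogen use and transport, listed from the study's annotations, were set beside the members in leaf pairs 1 and 4. Of 6 nitrogen genes tested, 4 were called higher in leaf pair 4 than in leaf pair 1 outdoors, where glutamine synthetase rose, and none lower. They were nitrate transporter 1.5 (log2 FC 4.81), an accessory protein of high-affinity nitrate transport (CATHA_10418, 3.35), L-aspartate oxidase (CATHA_35651, 2.00) and the asparaginase (CATHA_28259, 1.34). The median of all 6 was 1.98, against 0.00 over all genes tested, of which 8.41% were called higher and 13.9% lower. Indoors 3 were called higher and 1, the asparaginase (log2 FC -2.29), lower, beside 11.5% and 10.8% of all genes. Outdoors against indoors in leaf pair 4, the asparaginase (4.91) and L-aspartate oxidase (1.29) were called higher, beside 5.75% of all genes. In leaf pair 1, edgeR called 0 of the 6 between the growth conditions, where 2 had an unadjusted p under 0.05 and DESeq2 called 1.

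Nitrate reductase, which makes the nitrite from which ammonium is formed, varied more within the 4 groups of leaf pairs 1 and 4, relative to the group mean, than glutamine synthetase did. In leaf pair 4 outdoors it was at 860, 928 and 115 CPM, and in leaf pair 1 outdoors at 219, 226 and 18.5 CPM. Replicate 3 was the low library in both, as it was for glutamine synthetase in leaf pair 4 outdoors. Its age difference outdoors of 1.96 ± 0.965 (SE) was not called. Glutamate decarboxylase, which uses the glutamate that glutamine synthetase also draws on, was at -0.98 ± 0.1097 (SE) outdoors against indoors in leaf pair 4, just under the fold limit.

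Of the 3 other amino acid carriers, a cationic amino acid transporter 1-like gene (CATHA_12497) was called higher (log2 FC 1.90) and a neutral amino acid transporter 6-like gene (CATHA_12374) lower (-1.17) outdoors than indoors in leaf pair 4. Of the 3 other EamA genes, CATHA_25905 was called higher there (1.08). The transporter itself, at -0.68, was not called. With leaf age outdoors, the CATHA_12497 carrier was called higher (1.19) and the WAT1-related gene CATHA_18817 lower (-1.62), beside -0.41 without a call for the transporter. In the shikimate and indole branch, which takes up glutamine nitrogen at anthranilate synthase, 3 of 6 genes were called lower in leaf pair 4 than in leaf pair 1 outdoors: the anthranilate synthase alpha subunit (CATHA_12546, log2 FC -1.38), tryptophan decarboxylase (CATHA_23616, -4.41) and a dehydroquinate dehydratase/shikimate dehydrogenase (CATHA_31326, -1.08). The other 3 genes of the branch were not called in this comparison, where 13.9% of all genes were called lower.

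The other genes of the idioblast rankings were called in both directions with leaf age outdoors, beside 8.41% of all genes called higher and 13.9% lower. Of the other 24 genes ranked by idioblast fold change, 4 were called higher and 6 lower in leaf pair 4 than in leaf pair 1 outdoors, with a median log2 FC of -0.59. Of 23 tested of the other 24 ranked by idioblast level, 9 were called higher and 2 lower, with a median of 0.69. DAT (-0.999) and D4H (-0.30) were not called. Outdoors against indoors in leaf pair 4, the counts were 0 higher and 8 lower of the genes ranked by fold change, with a median of -0.56 near the transporter's -0.68, and 1 higher and 10 lower of those ranked by level. D4H was called lower there at -1.10, where 5.75% of all genes were called higher and 11.4% lower. The epidermal markers, which were also high in mesophyll protoplasts, fell with age in the same libraries. All 8 were called lower outdoors, with a median of -3.21. Their part in the leaf results was not tested.

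The genes most like each member were taken by Pearson's r of log2(CPM + 1) among genes with a description in the study's tables. Over the 12 libraries of leaf pairs 1 and 4, where 1025 such genes had a mean of at least 1 CPM, those most like glutamine synthetase were an Exo70 exocyst subunit gene (CATHA_21332, r = 0.98), a desacetoxyvindoline 4-hydroxylase-like gene (CATHA_32549, 0.97), L-aspartate oxidase (CATHA_35651, 0.97), a xyloglucan endotransglucosylase/hydrolase (CATHA_12762, 0.96) and a cinnamoyl-CoA reductase-like gene (CATHA_11282, 0.95). L-aspartate oxidase was at 39.0, 32.1 and 18.1 CPM in leaf pair 4 outdoors, with the lowest value in replicate 3 as for glutamine synthetase, and at 4.14 to 4.81 CPM in leaf pair 1 indoors. The Exo70, hydroxylase-like and xyloglucan genes were below 1 CPM on average in both groups of leaf pair 1. The libraries fall in 4 groups of 3 that share plants and depth, so r mostly describes the group levels.

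**Figure D5:**
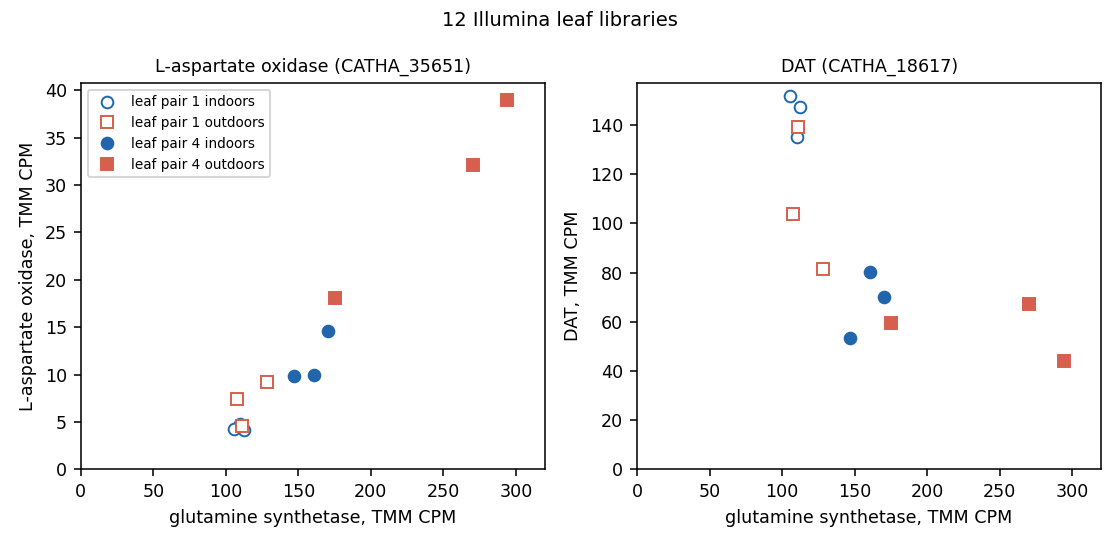
TMM CPM of glutamine synthetase (x axis) against L-aspartate oxidase (left) and DAT (right) in the 12 libraries of leaf pairs 1 and 4; open symbols are leaf pair 1, filled leaf pair 4, blue circles indoors and red squares outdoors. L-aspartate oxidase is highest where glutamine synthetase is highest, and DAT is lower in every leaf pair 4 library than in any leaf pair 1 library.

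For the transporter over the same 12 libraries, the most like were a WRKY domain gene (CATHA_19503, r = 0.84), an 8-hydroxygeraniol dehydrogenase-like gene (CATHA_14789, 0.83), a small GTPase (CATHA_24235, 0.79), a peptidase inhibitor (CATHA_1180, 0.78) and a ricin-agglutinin family gene (CATHA_18068, 0.77). The r between the members was -0.45 in these leaves. Of the idioblast markers, DAT was at r = -0.82 with glutamine synthetase and 0.55 with the transporter, and D4H at -0.41 and 0.54.

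Over all 23 Illumina libraries, where the idioblast protoplasts set both genes apart, the r between the members was 0.92. This value carries the choice of the genes and is no result about them. The genes most like glutamine synthetase there were a dnaJ 10 chaperone (CATHA_16645), purine permease 3 (CATHA_10451), a premnaspirodiene oxygenase (CATHA_10498), rififylin (CATHA_12517, an E3 ubiquitin ligase) and an AP2 gene (CATHA_26959), with r from 0.93 to 0.95. Those most like the transporter were rififylin, the small GTPase CATHA_24235, a magnesium-transporting ATPase (CATHA_14734), a WRKY transcription factor (CATHA_24905) and a kinesin light chain 3 gene (CATHA_12223), with r from 0.96 to 0.98.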

How the data were processed

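RNA was sequenced from 35 samples. Per the labels and the study's methods, the authors made Smart-seq2 (FACS) or TruSeq (leaf pairs 1 and 4) Illumina libraries, used Trimmomatic 0.39 for trimming and HISAT2 for alignment against the *C. roseus* genome, and deposited raw counts per gene from featureCounts 2.0.1. For leaf pairs 2 and 3 they deposited estimated counts from Nanopore cDNA reads, mapped with minimap2 and quantified with Salmon 1.4.0, and these were rounded here for tests. The stated counting options name neither strand nor the use of reads that match several genes. Reads of close copies or overlapping genes may therefore be lost or misassigned. A further FACS leaf sample was discarded by the authors for degraded RNA.

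Tests used edgeR 4.0.16 in R 4.3.3 (filterByExpr, TMM, robust glmQLFit and glmQLFTest, Benjamini-Hochberg over all genes tested), fitted on the 11 FACS, 12 Illumina leaf or 12 Nanopore samples; SE is the log2 FC divided by the square root of F. A call needed an adjusted p of at most 0.05 and an absolute log2 FC of at least 1. The fits were tested on simulated data. Alternatives were DESeq2 1.42.0, RLE size factors, no low-count filter, other samples in the fit, each replicate left out, and a replicate block. After seeing the data, list genes were also refitted without each FACS leaf library, and the list genes' interactions under the members' alternatives. Replicates differed by more than sampling noise in every group. The members and lists were chosen with earlier results of these data known; several list genes come from the study's table of genes higher in idioblasts. Named genes are the 2 members, the genes of the lists, and for each member the 5 described genes most like it over 12 and over 23 Illumina libraries (mean of at least 1 CPM). The nitrogen list had 7 genes, of which 1 (a nitrate transporter 2.5-like gene) failed the filter. Gene names are those of the study's tables. Of the gene IDs, 0 matched the RefSeq table at hand, so no coordinates or sequences are given.

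The reported fits have no block, and the pairing was checked for the fits with one. For FACS samples the methods call leaves and protoplasts paired, and same-numbered total protoplasts and leaves deviated together from their group means (r of 0.22 and 0.24). With only 2 leaf libraries their deviations mirror each other, so these r say little about the pairing. For leaf pairs, 3 plants of each growth condition gave all 4 leaf pairs, and the file headers carry one number through them. This number was read as the plant although no source spells this out. Between leaf pairs 1 and 4, r for the same number was 0.42 to 0.56 outdoors and -0.10 to 0.32 indoors. Between leaf pairs 2 and 3 it was 0.10 to 0.23 outdoors and 0.03 to 0.09 indoors. Between indoor and outdoor plants, which are not the same plants, it was 0.10 to 0.41 in leaf pair 1 and -0.16 to 0.12 in leaf pair 4. The r alone therefore did not settle that the number is the plant. Intervals cover counting error only, as reads are not independent molecules.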

Additional observations from a re-analysis of the deposited data

Results flagged for a closer look

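The age difference between leaf pairs 4 and 1 changed with growth condition in 5 of the 18 nitrogen, carrier, EamA and indole genes tested beside the members, by edgeR's interaction test with an adjusted p of at most 0.05 and no fold limit, which 6.98% of all genes met. Neither member met it, but glutamine synthetase did without leaf pair 4 outdoors replicate 3 (adjusted p 0.0352). The asparaginase CATHA_28259 was lower in leaf pair 4 indoors (log2 FC -2.29) and higher outdoors (1.34), an interaction of 3.63 ± 0.669 (SE) with an adjusted p of 0.0139. Glutamate decarboxylase CATHA_5590 was at 0.50 indoors and -0.41 outdoors, an interaction of -0.91 ± 0.154 (SE) with an adjusted p of 0.0102. Tryptophan decarboxylase CATHA_23616 fell further with age outdoors than indoors, with an interaction of -2.75 ± 0.647 (SE) and an adjusted p of 0.0308. The anthranilate synthase alpha subunit CATHA_12546 had an interaction of -0.84 ± 0.151 (SE) with an adjusted p of 0.0129, and the EamA and LEA domain gene CATHA_25905 one of 0.54 ± 0.131 (SE) with an adjusted p of 0.0353. Under 16 alternative settings, run after seeing the data, the asparaginase interaction met an adjusted p of 0.05 in 16 (3.13 to 4.03), that of glutamate decarboxylase in 15 (-1.02 to -0.69) and that of the anthranilate synthase subunit in 15 (-0.91 to -0.68). That of tryptophan decarboxylase met it in 6 (-3.46 to -2.27) and that of CATHA_25905 in 7 (0.49 to 0.62). No explanation was tested.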

How the results depend on the processing

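Of 242 alternative values for 23 results, 226 kept their direction and, for results with a test, their side of the call. The contrasts among the protoplast groups have no test and carry the selection of the genes. There a value was counted as kept if it moved by less than the replicate spread. On this basis 16 of the 23 results, some of these contrasts included, held under every alternative run. The cause was not tested for those that did not. The transporter in total protoplasts against FACS leaves ran from -2.36 to -1.39 with single libraries left out, and was -1.92 (not called) with only the 5 compared samples; glutamine synthetase there ran from -0.83 to 0.26. Where 1 FACS leaf library was left out, the remaining one was assumed to vary like the other groups. With the header number, read as the plant, as a replicate block, glutamine synthetase in leaf pair 4 against 1 outdoors was 0.99, and single libraries left out moved it from 0.88 to 1.21; the blocks changed no other call, the number block between growth conditions, whose plants differ, included. The transporter in leaf pair 4 against 1 indoors ran from -0.32 to 0.18. In the Nanopore libraries, glutamine synthetase in leaf pair 3 against 2 ran from -0.14 to 0.057 indoors (0.028 with no low-count filter) and from -0.17 to 0.42 outdoors, and the interaction from -0.14 to 0.46. Counts of called genes moved by over 1.5 times for the leaf pair 4 against 1 interaction (691, and 219 to 991 without single libraries), for Nanopore leaf pairs 2 (575, and 327 without leaf pair 2 indoors replicate 2) and 3 (743, and 489 without leaf pair 3 indoors replicate 1), and for leaf pair 3 against 2: indoors 0, then 16 with DESeq2, 40 with no filter and 107 with the block; outdoors 12, then 24, 49 and 91; interaction 0, then 5 with no filter and 9 with the block. Without single libraries these 3 counts were 0 to 2, 1 to 14 and 0 to 6. The transporter's 20 to 72 counts per Illumina leaf library, and the Nanopore depth, limit its precision.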
